A study of Homo sapiens with 6 samples.

Results

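PPAR-alpha is a nuclear receptor that fatty acids activate in the fasting liver, and the 8 genes described here are 3 regulators and 5 targets of that response. The regulators are PPARA, which encodes the receptor, PPARGC1A, which encodes a coactivator, and CREB3L3, which encodes a liver transcription factor held in the endoplasmic reticulum membrane. The targets are PDK4, ANGPTL4, PLIN2, FABP1 and VNN1. The members were taken by symbol, outside the carnitine shuttle and the mitochondrial oxidation enzymes. All 8 were found among the 60564 rows with an Ensembl gene identifier, and all 8 passed the filter on low counts that left 22230 genes for testing.

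RNA sequencing covered 6 libraries of HepG2, an established human hepatoma line that keeps many hepatocyte functions and is labelled WT. The 3 formononetin libraries came from cells given that plant isoflavone at a labelled dose of 625 (unit written μm) for 72 h in DMEM with fetal calf serum. The 3 control libraries are labelled with DMEM alone, and the labels name no solvent control and no separate control time. All libraries thus come from 1 tumour line in culture, not from fasted tissue. The control labels name only DMEM, so whether control cells also had serum was not given. Nothing says that replicates were separate cultures, so the p-values cover only library-to-library spread, part of which may be technical.

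Counts on named genes were 37465148 to 45682722 in formononetin libraries and 30848848 to 36243606 in control libraries. The hepatocyte markers of the label were abundant, at a summed 34737 to 36160 CPM (counts per 1000000 of scaled library size) in formononetin libraries and 41404 to 42802 CPM in control libraries. Of these 8 markers 1 was raised and 6 were lowered with formononetin. Markers of leukocytes and macrophages summed to 6.23 to 8.47 CPM in formononetin libraries and 2.89 to 4.87 CPM in control libraries, with PTPRC at 0 counts. Of the 2 leukocyte and macrophage markers tested 1 was raised and 0 lowered. Endothelial markers summed to 24.0 to 28.2 CPM in formononetin libraries and 22.1 to 25.6 CPM in control libraries, with 0 of 2 tested markers called. Fibroblast and stellate markers summed to 3.82 to 4.59 CPM in formononetin libraries and 12.9 to 15.1 CPM in control libraries, with COL1A2 and DCN at 0 counts and the 1 marker tested lowered. Adipocyte markers summed to 0.446 to 0.751 CPM in formononetin libraries and 0.363 to 0.559 CPM in control libraries, with ADIPOQ at 0 counts and the 1 marker tested not called. The part of all these lists in the results was not tested.

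In the fasting hepatocyte, fatty acids released from fat tissue bind PPAR-alpha, which pairs with a retinoid X receptor on direct repeats of the letters AGGTCA. The pair raises genes that take up, bind, store and oxidise fatty acids. CREB3L3 is released from its membrane by proteases of the Golgi apparatus, works with PPAR-alpha and is itself a target of it. PGC-1 family coactivators increase the activity of the receptor.

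A pair of promoters is printed first because they held this repeat. RefSeq windows on GRCh38.p14, from 250 bases before to 50 after a gene's start, were found for 7 of the 8 members, 9 windows in all, the exception being VNN1. Capitals mark the match to AGGTCA repeated after 1 base of any kind, where at most 2 of the fixed letters may differ and either strand counts. The sequences run 5′ to 3′ over 195 bases, from 250 to 56 bases before the start, on chr19:4153381-4153575 (plus strand) for CREB3L3 and chr2:88128118-88128312 (minus strand) for FABP1.
CREB3L3: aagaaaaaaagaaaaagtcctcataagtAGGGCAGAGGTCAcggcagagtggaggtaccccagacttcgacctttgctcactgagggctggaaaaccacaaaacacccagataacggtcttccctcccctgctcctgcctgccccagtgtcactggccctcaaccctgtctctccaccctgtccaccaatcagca
FABP1: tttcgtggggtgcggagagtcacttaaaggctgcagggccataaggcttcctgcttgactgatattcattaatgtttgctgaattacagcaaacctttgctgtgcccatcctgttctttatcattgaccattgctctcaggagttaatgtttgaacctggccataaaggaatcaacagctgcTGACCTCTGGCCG

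The CREB3L3 match began 222 bases before the start, lay on the printed strand and differed in 1 letter. The FABP1 match began 68 bases before the start, lay on the opposite strand and differed in 2 letters. Among all 35116 RefSeq windows of this length, 2.97% held such a match. The unrepeated AGGTCA, which also counts inside these matches, was in 13.8% of all windows and in the windows of CREB3L3 and FABP1 among members. TGACGTCA with at most 1 letter different, the element that CREB-type factors bind, was in 11.8% of all windows and in none of the members' windows. CCACG, part of a stress-response element, was in 38.1% of all windows and in windows of PPARA, PPARGC1A, PDK4, ANGPTL4, PLIN2 and FABP1. The PPARGC1A matches lay in a window at chr4:24472856-24473155, outside the coordinates given for the gene below, and its other window held none. A match is a string of letters and not a measured binding site.

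Formononetin libraries held more transcript of the CREB3L3, VNN1, PLIN2 and FABP1 genes and less of PPARGC1A, while PPARA, ANGPTL4 and PDK4 did not pass the test. Thus 4 of 8 members were raised, against 12% of all genes tested, and 1 was lowered, against 8.71% (edgeR quasi-likelihood test over all genes, called at a Benjamini-Hochberg p under 0.05). Libraries of the groups did not overlap for 5 of 8 members, against 39.4% of all genes tested. The members' median log2 fold change of formononetin against control was 0.41, beside -0.01 for all genes tested. The split over all genes was 2659 raised and 1937 lowered, and 1813 raised and 2737 lowered under upper quartile scaling, where 3 members were raised and 1 lowered. A bulk library cannot tell fewer expressing cells from less RNA per cell.

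**Figure D1:**
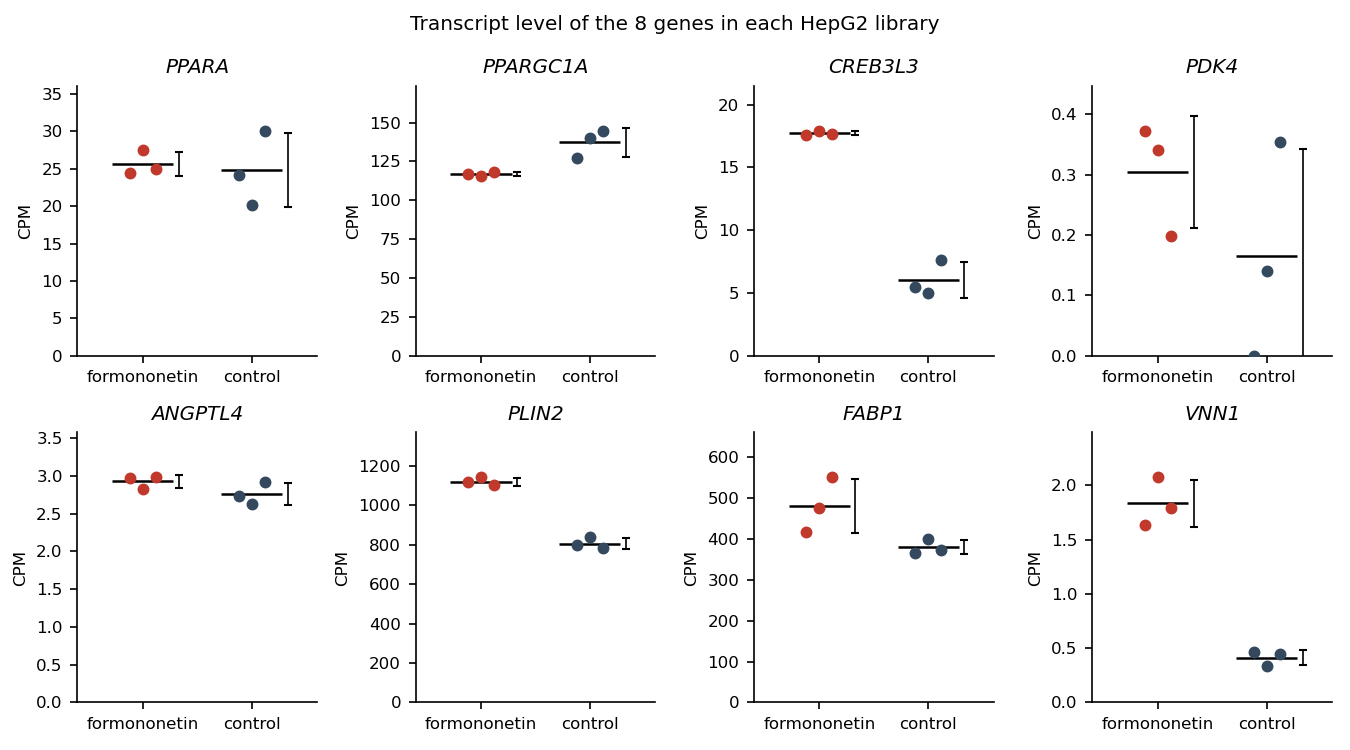
Level of each of the 8 genes in CPM, on linear axes from 0, in the formononetin libraries (red, left) and control libraries (dark, right), with each point 1 library, the line the mean and the bar its SD (n = 3). The groups are apart for CREB3L3, VNN1, PLIN2, FABP1 and PPARGC1A and overlap for PPARA, ANGPTL4 and PDK4.

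Among the regulators, PPARA (ENSG00000186951, chromosome 22, 46150521 to 46243756, GRCh38 with GENCODE 29, as for the genes below) had 24.4, 27.5 and 25 CPM in formononetin replicates 1 to 3, against 24.1, 20.2 and 30.0 CPM in control replicates 1 to 3. Control replicates 2 and 3 were the lowest and highest of all 6 libraries, so the groups overlapped. PPARA averaged 25.6 ± 1.65 CPM in formononetin and 24.8 ± 4.95 CPM in control libraries (SD, n = 3 each). Its log2 fold change was 0.05 ± 0.14 (standard error), with a 95% interval of -0.28 to 0.38 and adjusted p = 0.853 in the edgeR test. The sign turned without control replicate 2 (-0.08), and the change was 0.21 without control replicate 3.

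PPARGC1A (ENSG00000109819, chromosome 4, 23755041 to 23904089), whose product coactivates PPAR-alpha and other receptors, had 117.0, 116 and 118 CPM in formononetin libraries and 127, 140.3 and 145 CPM in control libraries. All formononetin libraries lay below all control libraries. The means were 117 ± 1.28 CPM in formononetin and 137 ± 9.19 CPM in control libraries, a log2 fold change of -0.23 ± 0.06 (edgeR adjusted p = 0.0265). This call was lost in 8 of 15 alternatives, of which 5 left out 1 library, any formononetin replicate or control replicate 2 or 3. The adjusted p ran from 0.00864 to 0.0853 over all 15.

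CREB3L3 (ENSG00000060566, chromosome 19, 4153601 to 4173054) had 17.6, 17.9 and 17.6 CPM in formononetin libraries and 5.46, 5.00 and 7.64 CPM in control libraries. The formononetin libraries were close to each other and every one was above the highest control library, replicate 3. The means were 17.7 ± 0.161 CPM in formononetin and 6.03 ± 1.41 CPM in control libraries, 2.94-fold higher with formononetin. The log2 fold change of 1.55 ± 0.16 (95% interval 1.18 to 1.93, edgeR adjusted p = 0.000883) ranked 122 from the top among the 22230 genes tested. It kept its call in all 15 alternatives, with log2 fold changes of 1.43 to 1.76.

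**Figure D2:**
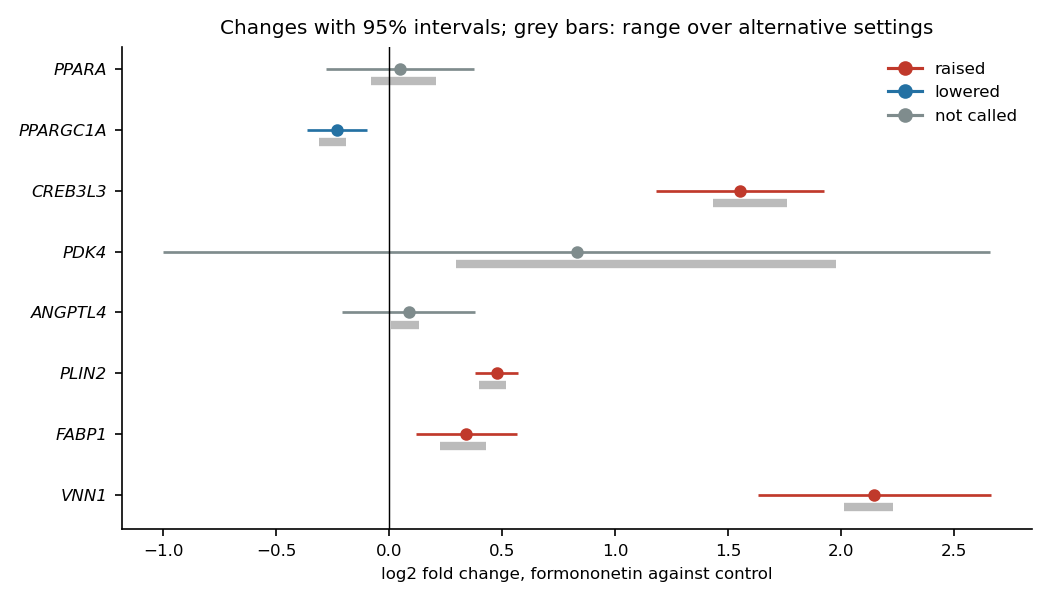
Log2 fold change of formononetin against control for each member (point) with its 95% interval (thin line), and the range of the estimate over 15 alternative settings (thick grey bar). VNN1 at 2.15 and CREB3L3 at 1.55 lie far from 0, the interval of PDK4 runs from -1.0 to 2.66, and those of PPARA and ANGPTL4 include 0.

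Of the targets, VNN1 encodes a membrane pantetheinase that splits pantetheine into pantothenate and cysteamine (ENSG00000112299, chromosome 6, 132681590 to 132714049). It had 66, 79 and 81 counts in formononetin libraries and 14, 12 and 15 counts in control libraries. In CPM these were 1.64, 2.07 and 1.79 with formononetin and 0.461, 0.335 and 0.442 in control libraries, with no overlap. VNN1 thus rose 4.43-fold from a low level, a log2 fold change of 2.15 ± 0.22 (edgeR adjusted p = 0.000884, rank 47 from the top). The call held in all 15 alternatives, with log2 fold changes of 2.01 to 2.23. In the alternative with a filter of 1 CPM in 3 libraries, VNN1 passed only through its formononetin libraries, so that setting adds no support.

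PLIN2 (ENSG00000147872, chromosome 9, 19108375 to 19149290) encodes a protein that coats lipid droplets and rises with the lipid load of the cell. Its level was 1121, 1142 and 1101 CPM in formononetin libraries and 798, 839 and 783 CPM in control libraries. The gap between the groups exceeded the spread within either of them. The means were 1122 ± 20.3 CPM in formononetin and 807 ± 29.1 CPM in control libraries, a log2 fold change of 0.48 ± 0.04, or 1.39-fold (edgeR adjusted p = 0.000478, called in all 15 alternatives).

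FABP1 (ENSG00000163586, chromosome 2, 88122982 to 88128116) encodes the fatty acid binding protein of the liver cytosol, which carries ligands to PPAR-alpha. It had 417, 475 and 550 CPM in formononetin libraries and 366, 400 and 373 CPM in control libraries. The groups did not overlap, but formononetin replicate 1 lay near control replicate 2. The means were 481 ± 66.6 CPM in formononetin and 380 ± 17.7 CPM in control libraries, a log2 fold change of 0.34 ± 0.10 (edgeR adjusted p = 0.0439). The call was lost in 9 of 15 alternatives, including the omission of any control replicate and of formononetin replicate 2 or 3. Its adjusted p ran from 0.0120 to 0.120 over the 15, and the log2 fold change was 0.23 without formononetin replicate 3.

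ANGPTL4 (ENSG00000167772, chromosome 19, 8363289 to 8374373) encodes a secreted inhibitor of lipoprotein lipase. It had 2.98, 2.83 and 2.98 CPM in formononetin libraries and 2.73, 2.63 and 2.92 CPM in control libraries, which overlapped. The means were 2.93 ± 0.0851 CPM in formononetin and 2.76 ± 0.149 CPM in control libraries, and the log2 fold change was 0.09 ± 0.13 (edgeR adjusted p = 0.684). The 95% interval of the log2 fold change, -0.21 to 0.38, does not reach the change of VNN1 or CREB3L3. Its exons overlap those of the opposite-strand gene RAB11B-AS1 by 1 base.

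PDK4 (ENSG00000004799, chromosome 7, 95583499 to 95596491) encodes a kinase that switches off pyruvate dehydrogenase in fasting. It had 15, 13 and 9 counts in formononetin libraries and 0, 5 and 12 counts in control libraries. Control replicate 1 was thus at 0, which allows up to 0.0987 CPM (3 counts, counting error only), while control replicate 3 lay within the range of the formononetin libraries. The fitted log2 fold change was 0.83 ± 0.78 (edgeR adjusted p = 0.513), 0.30 without control replicate 1 and 1.98 without control replicate 3. No difference was detected, and the 95% interval of -1.0 to 2.66 includes changes as large as that of VNN1.

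Levels of different genes are compared here as CPM per kilobase of annotated exons, which adjusts for gene length but depends on the length chosen. On that scale PLIN2 was highest, at 221 ± 4.0 in formononetin and 159 ± 5.73 in control libraries, next to FABP1 at 195 ± 27.0 in formononetin and 154 ± 7.16 in control libraries. PLIN2 and FABP1 overlapped in both groups, and of the other neighbours in the order one pair did, named below. PPARGC1A followed at 10.8 ± 0.118 CPM per kilobase with formononetin and 12.6 ± 0.846 in control libraries. CREB3L3 came after it, at 6.62 ± 0.0602 with formononetin, and at 2.25 ± 0.526 in control libraries, where it overlapped PPARA. PPARA stood at 1.94 ± 0.125 with formononetin and 1.88 ± 0.374 in control libraries. ANGPTL4 stood at 1.18 ± 0.0343 with formononetin and 1.11 ± 0.0601 in control libraries. VNN1 and PDK4 closed the order, VNN1 at 0.590 ± 0.0709 with formononetin and 0.133 ± 0.0218 in control libraries, and PDK4 at 0.0672 ± 0.0205 with formononetin and 0.0364 ± 0.0395 in control libraries. The order of the means was the same in both groups, and also when the median length of coding transcripts was used. The overlaps were not kept with that length. It was 655 bases for PLIN2, against 5086 bases of exons, and 1197 for FABP1, against 2470. The gap between PLIN2 and FABP1 thus depends on the length used. PLIN2 and FABP1 then had means of 1712 and 402 CPM per kilobase in formononetin libraries, without overlap. In control libraries their means were 1232 and 317, without overlap, and CREB3L3 and PPARA did not overlap there either.

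Within the perilipin family PLIN2 was the most abundant per length, since PLIN3, the next, had 26.6 CPM per kilobase in formononetin and 26.2 in control libraries. PLIN3 was not called (log2 fold change 0.02 ± 0.09, edgeR adjusted p = 0.889), nor were PLIN1 and PLIN4, while PLIN5 was lowered (-1.0 ± 0.28, adjusted p = 0.0423). PLIN5, which tethers droplets to mitochondria, had 1.49 ± 0.282 CPM in formononetin and 2.97 ± 0.947 CPM in control libraries, and its call was lost in 7 of 15 alternatives, among them the omission of any formononetin replicate or of control replicate 2 or 3. FABP1 likewise led its family, with FABP5 next at 3.56 CPM per kilobase in formononetin and 2.35 in control libraries. FABP5 rose (0.60 ± 0.12, edgeR adjusted p = 0.0131, a call lost without formononetin replicate 3), FABP2 and FABP3 were not called, and FABP4, FABP6 and FABP7 had too few counts to test.

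PPARA, CREB3L3, PDK4 and ANGPTL4 were not the leading gene of their family by mean level, with either length. The place of PPARGC1A depended on the length used. Per kilobase of exons its relative PPRC1 had 17.7 CPM with formononetin and 18.5 in control libraries, above PPARGC1A. Per kilobase of the median coding transcript PPARGC1A led, with 49.0 CPM with formononetin and 57.6 in control libraries, and PPRC1 had 23.6 with formononetin and 24.6 in control libraries. The exons of PPARGC1A cover 10870 bases and its median coding transcript 2385. Those of PPRC1 cover 6095 and its median coding transcript 4580. PDK4 was the lowest of 4 pyruvate dehydrogenase kinases per length, below PDK1 at 3.83 CPM per kilobase in formononetin and 5.60 in control libraries. PDK1, a kinase that hypoxia raises, was lowered (-0.55 ± 0.05, edgeR adjusted p = 0.000679), and PDK2 and PDK3 were not called. PPARD and PPARG, for the other receptors of the PPAR family, had 6.61 and 6.19 CPM per kilobase with formononetin and 5.82 and 4.97 in control libraries, above PPARA in every library, and neither was called (adjusted p = 0.108 and 0.329). Unlike PPARGC1A, its relative PPARGC1B rose, to 15.4 ± 0.760 CPM in formononetin against 7.56 ± 0.884 CPM in control libraries (1.02 ± 0.11, adjusted p = 0.00109).

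Per length, CREB3L3 lay below CREB3 and CREB3L2 in both groups and above CREB3L4 by its mean. CREB3, CREB3L2 and CREB3L4 were not called, and CREB3L1 had too few counts to test. CREB3L2 varied widely within groups, with 437, 142 and 149.8 CPM in formononetin and 387, 121 and 125 CPM in control libraries. ANGPTL8, a fed-state member of its family, had the highest mean there, at 8.91 CPM per kilobase in formononetin and 6.83 in control libraries, and it was not called (adjusted p = 0.137). ANGPTL6 was not called either (adjusted p = 0.202). VNN1 lay above VNN2 in every library, and VNN2 had too few counts to test.

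**Figure D3:**
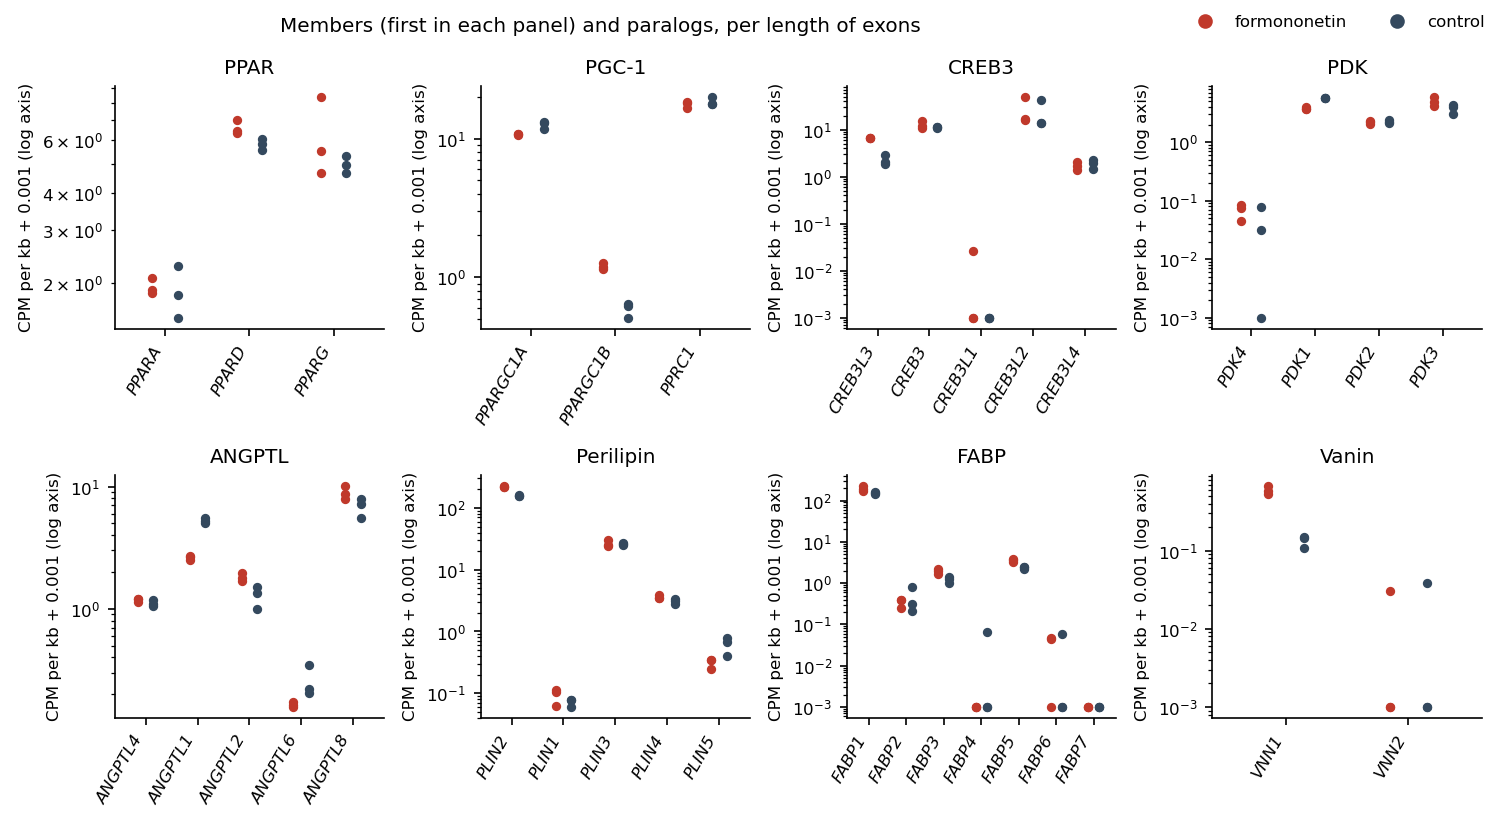
CPM per kilobase of exons plus 0.001 (log axes) for each member, first in its panel, and paralogs, with each point 1 library of formononetin-treated (red) or control (dark) cells. PLIN2 and FABP1 are the highest of their families, PDK4 the lowest of its own, and points at 0.001 are libraries with 0 counts.

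The wider pathway was described with 12 lists that hold 162 genes, the 8 members left out, and 139 of them were tested. Of these 44 were raised and 21 lowered, with a median log2 fold change of 0.18. The regulator lists held 41 tested genes, 3 raised and 14 lowered (median -0.14). The target lists held 98, of which 41 were raised and 7 lowered (median 0.24). The matching shares of all genes tested are the 12% and 8.71% given above, and all calls are from the edgeR test over all genes. The lists, like the members, were chosen with earlier results of these data known.

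Among the regulators, partners and coregulators of PPAR had 1 of 19 genes raised, PPARGC1B, and 8 lowered (median -0.18). The acetyltransferase gene CREBBP fell most, to 160 ± 6.05 CPM in formononetin against 217 ± 4.86 CPM in control libraries (-0.44 ± 0.04, adjusted p = 0.000869). RXRA, for the main partner receptor of PPAR-alpha in liver, was not called (0.19 ± 0.12, adjusted p = 0.300). Lowered coregulators numbered 4 or 5 in 7 of the 15 alternatives, among them the omission of control replicate 3 or of any formononetin replicate.

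Apart from CREB3L3, the CREB3 and ATF6 genes and their proteases had 0 of 7 tested genes called in either direction by edgeR, DESeq2 or limma voom, with 1 raised and 1 lowered at an unadjusted p under 0.05 and 2 lowered under upper quartile scaling. Among the other fasting transcription factors 2 of 15 rose and 6 fell (median -0.12). HNF4A, a master regulator of hepatocyte genes, was raised (251 ± 31.3 CPM in formononetin, 185 ± 6.41 CPM in control libraries, 0.44 ± 0.09, adjusted p = 0.0120). KLF15, a fasting regulator of amino acid use, was lowered (2.78 ± 0.247 CPM in formononetin, 6.44 ± 1.37 CPM in control libraries, -1.21 ± 0.18, adjusted p = 0.00420).

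Genes for peroxisomal oxidation and omega-hydroxylation had 13 of 18 members raised and none lowered, with a median of 0.45. DESeq2 and limma voom also called 0 lowered, as did an unadjusted p under 0.05. CYP4F2, a fatty acid hydroxylase gene, rose most, by 1.34 ± 0.27 on the log2 scale (adjusted p = 0.0134), though reads of its close copy CYP4F3 may be split between them. CYP4A11, a known PPAR-alpha target, had 0 counts in all 6 libraries, which allows up to 3 counts in each.

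Ketone body and FGF21 genes had 1 of 7 raised, the thiolase gene ACAT1 (0.58 ± 0.05, adjusted p = 0.000605), and 0 lowered, also by DESeq2, limma voom and at an unadjusted p under 0.05. FGF21, the fasting hormone that CREB3L3 and PPAR-alpha induce in mice, was too low to test, at 0.0662 to 0.262 CPM with formononetin and 0.0838 to 0.165 CPM in control libraries. Raised genes of this list numbered 2 when control replicate 1 or 3 was omitted, and 1 was lowered under upper quartile scaling.

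Of the genes for uptake, binding and activation of fatty acids 6 of 14 rose and 1 fell (median 0.23). SLC27A2, an acyl-CoA synthetase that admits fatty acids, rose most, to 34.7 ± 0.247 CPM in formononetin against 18.4 ± 1.04 CPM in control libraries (0.92 ± 0.07, adjusted p = 0.000295). ACSL4 was the gene that fell (-0.19 ± 0.04, adjusted p = 0.0182), a call lost in 5 of 15 alternatives, 3 of which omitted control replicate 3 or formononetin replicate 2 or 3. Omitting control replicate 2 or formononetin replicate 2 or 3, or scaling by the upper quartile, left 3 raised. Lowered genes numbered 0 to 2 over the alternatives, with 2 when formononetin replicate 1 was omitted.

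Lipid droplet genes had 3 of 12 raised and 2 lowered (median 0.21). CIDEC, which fuses droplets into larger ones, had 9.95, 14.1 and 10.8 CPM in formononetin libraries and 3.09, 3.10 and 3.63 CPM in control libraries. Its log2 fold change was 1.83 ± 0.16 (adjusted p = 0.000561), larger than that of PLIN2. PLIN5 was the gene of this list that fell most. The other lowered gene, PNPLA2 (-0.50 ± 0.04, edgeR adjusted p = 0.000522), kept its call in all 15 alternatives. Lowered droplet genes numbered 1 in those 7 alternatives that lost the call of PLIN5.

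Around PDK4, genes of pyruvate dehydrogenase and its regulation had 4 of 12 raised and 1 lowered (median 0.22). PDHA1, for a subunit of the enzyme, rose by 0.33 ± 0.05 (adjusted p = 0.00398), and the gene lowered was PDK1. Raised genes here numbered 2 with upper quartile scaling, and 2 when control replicate 3 or any formononetin replicate was omitted. Around ANGPTL4, 0 of 7 tested genes were raised by edgeR or limma voom and 1 by DESeq2, with 2 raised at an unadjusted p under 0.05. Of that list 2 were lowered, led by ANGPTL1 at 8.89 ± 0.357 CPM in formononetin and 17.8 ± 0.872 CPM in control libraries (-1.01 ± 0.08, adjusted p = 0.000440). Lipoprotein lipase itself, LPL, was at 0 counts in every library. The second lowered gene, LMF1, at adjusted p = 0.0499, was called in 5 of 15 alternatives and lost when control replicate 1 or 3 or any formononetin replicate was omitted.

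Around VNN1, vanin and coenzyme A genes had 2 of 10 raised and 0 lowered (median 0.18), with 0 lowered by DESeq2, limma voom and an unadjusted p under 0.05 as well. The thioesterase gene ACOT1 rose by 0.46 ± 0.09 (adjusted p = 0.00907), and its close copy ACOT2 may share its reads.

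Other genes reported as PPAR-alpha targets had 10 of 14 raised and 1 lowered (median 0.55). AQP3, for a channel of water and glycerol, had 12.7, 10.7 and 13.0 CPM in formononetin libraries and 1.84, 2.21 and 1.83 CPM in control libraries. Its log2 fold change of 2.63 ± 0.14 (adjusted p = 9.14e-05) was above that of any member. GK, the glycerol kinase gene, was the one lowered (-0.52 ± 0.05, adjusted p = 0.000560), and 2 were lowered under upper quartile scaling.

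Of 5 tested genes reported as CREB3L3 targets, 3 rose and 0 fell (median 1.06), and DESeq2, limma voom and an unadjusted p under 0.05 also gave 0 lowered. The list held 9 genes, of which FGF21, G0S2, APCS and CRP had too few counts to test. The raised genes were CIDEC, which is also a droplet gene, APOA4 and HAMP. APOA5 (0.16 ± 0.07, edgeR adjusted p = 0.183) and APOC2 (0.25 ± 0.12, adjusted p = 0.204) were not called. APOA4, an apolipoprotein of triglyceride-rich particles, had 14.3, 15.1 and 14.4 CPM in formononetin libraries and 7.11, 6.65 and 7.26 CPM in control libraries (1.06 ± 0.09, adjusted p = 0.000440). HAMP, for the iron hormone hepcidin, had 2.68 ± 0.566 CPM in formononetin and 0.774 ± 0.263 CPM in control libraries (1.80 ± 0.28, adjusted p = 0.00465).

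**Figure D4:**
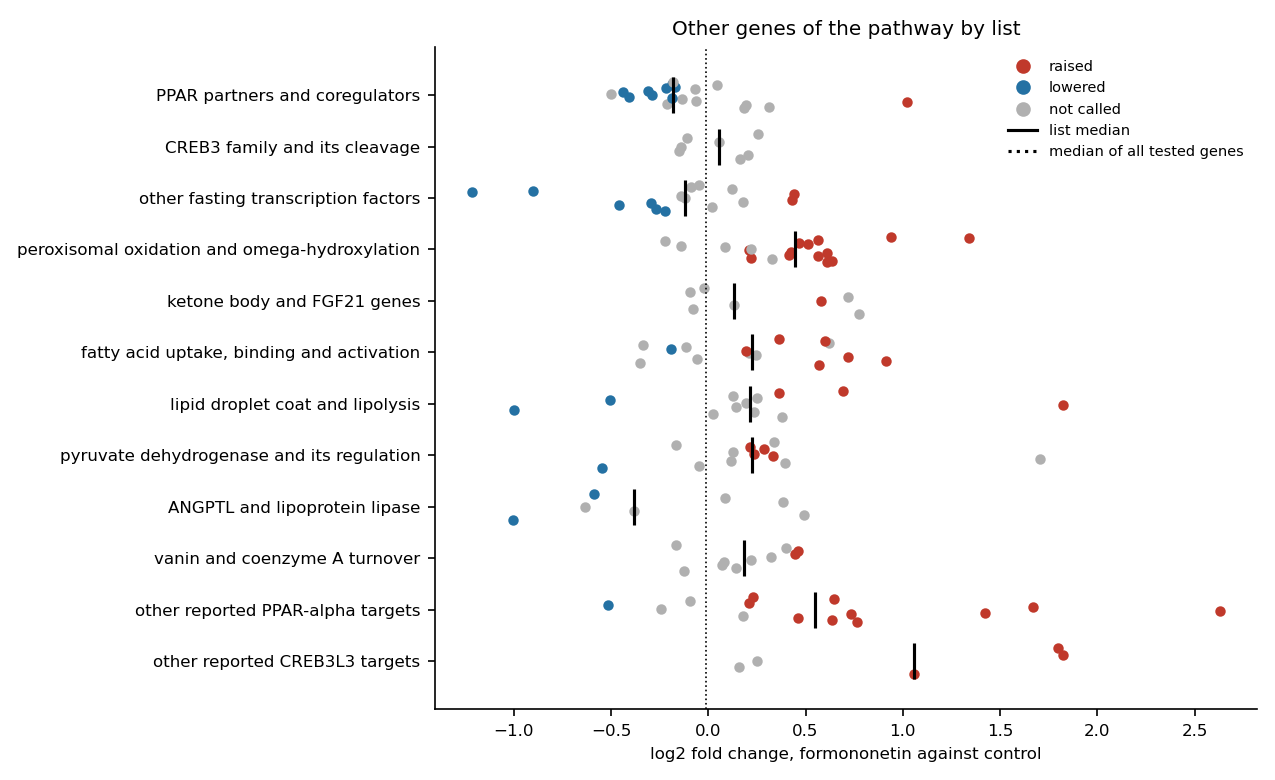
Log2 fold change of formononetin against control for the tested genes of 12 pathway lists, with each point 1 gene coloured by its call, the bar the list median and the dotted line the median of all genes tested (-0.01). The peroxisomal list has 13 raised points and no lowered one, and the coregulator list has 8 lowered points and 1 raised.

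For 6 members, the gene with the most similar pattern over the 6 libraries was sought among 9600 genes by the root mean square distance of centred log2 CPM. CREB3L3 was nearest to FAH, an enzyme of tyrosine breakdown, at a distance of 0.159. The other nearest genes were MTMR4 for PPARGC1A at 0.0165, PIP4K2A for PLIN2 at 0.0235, USP18 for FABP1 at 0.0455, CHAMP1 for ANGPTL4 at 0.0141 and ZNF778 for PPARA at 0.0542. VNN1 and PDK4 were left out because their mean log2 CPM was below 1. A short distance also reflects a small change, and all 6 points share their libraries.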

How the data were processed

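The authors deposited whole-number raw counts per gene for 6 HepG2 libraries, made with a stranded mRNA kit from total RNA per the labels' protocols. The submitters' processing notes name GRCh38, STAR 2.5.3a and StringTie 1.3.1c without roles. Which program counted reads, on which strand and against which annotation was not given in the sources used here. Of 62729 rows, 2165 assembled loci name no gene (3.82 to 5.62% of counts) and entered neither library sizes nor tests. Symbols came from a table that matched 60295 of 60564 identifiers, and coordinates and exon lengths from GENCODE 29.

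Genes were filtered with filterByExpr, scaled with TMM and tested with edgeR 4.0.16 in R 4.3.3 (quasi-likelihood F test, group as only term, two-sided, 3 against 3 libraries, Benjamini-Hochberg threshold 0.05). Dividing a log2 fold change by the root of its F statistic gave the standard error, and 95% intervals use the test's degrees of freedom. CPM are counts per 1000000 of TMM-scaled library size. On simulated data of 21750 genes for this comparison, the test called 50 of 50 genes raised by a log2 value of 2, 42 of 50 raised by 1, 40 of 50 lowered by 1, 9 of 50 raised by 0.5 and 9 of 21550 unchanged genes. Chi-square values between libraries of the same group, 14.8 to 39.2 for each degree of freedom, exceeded sampling noise.

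The 15 alternatives were other scalings and filters, DESeq2 1.42.0, limma voom 3.58.1, a replicate block, the assembled loci and leaving out each library. The transcript length alternative was chosen after seeing the data. The members and lists were chosen with earlier results of these data known. Named genes were all members, their paralogs, 7 further pathway genes and, of each list, the called gene that rose and the one that fell most at a mean log2 CPM of 1 or more. Some of these are not reported here. LMF1, HAMP, APOA4, LPL, PPRC1, PNPLA2 and CREB3L2's library values were named after seeing values. Patterns were compared among genes of mean log2 CPM 3 or more, with a prior count of 2. Intervals cover counting error and spread between libraries only.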

Additional observations from a re-analysis of the deposited data

How the results depend on the processing

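Over the 15 alternatives CREB3L3, VNN1 and PLIN2 kept their call and direction, and PPARA, ANGPTL4 and PDK4 were never called (PDK4 had no adjusted p in 2 of them). VNN1 passed the filter of 1 CPM in 3 libraries only through its formononetin libraries. Members raised numbered 3 to 4 when 1 library was left out and 3 to 4 in the other settings. Members lowered numbered 0 to 1 without 1 library, and 0 with library totals only, with no low-count filter or with a replicate block. Pathway genes lowered numbered 12 to 18 without 1 library (12 without formononetin replicate 3, 13 without control replicate 3), and 13 with library totals only, with no filter or with a replicate block. Over all genes, leaving out 1 library gave 1703 to 2189 raised, fewest without formononetin replicate 3, and 1272 to 1478 lowered, fewest without control replicate 3. Of 43 named genes, 30 results lost their call and 2 gained one (CREB3L2 and PDK3, both with the replicate block), while 606 stayed on their side of the threshold. The replicate block gave 3 members raised and 0 lowered, 1 raised gene in the CREB3 list, 3 raised and 0 lowered in the fatty acid uptake list, 4 lowered coregulators, 1 lowered gene in the ANGPTL list, and 1921 genes raised and 1362 lowered in all. Over all genes tested, deviations of same-numbered libraries correlated at -0.00206, 0.00916 and -0.0218. Of all pairs, formononetin replicate 3 with control replicate 1 correlated best (0.0164). Formononetin replicate 1 with control replicate 3 came next (0.0161). Values taken over all genes do not settle whether replicate numbers are shared for single genes. CREB3L2 was highest in replicate 1 of both groups, at 437 CPM with formononetin and 387 CPM in control libraries. PDK4 had 0 to 15 counts per library, and its control libraries alone ran from 0 to 12 counts. Whether low counts or this spread left PDK4 uncalled was not tested. The cause of the lost calls was not tested.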
